A study of Symphysodon aequifasciata with 2 samples.

Results

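The granins and the enzymes that mature neuropeptides were followed in poly(A) RNA from the brain of the discus, an ornamental cichlid (Symphysodon aequifasciata). Members were features of the expression table whose protein match is named as a chromogranin, a secretogranin, a neuroendocrine or other proprotein convertase, carboxypeptidase E, the peptidyl-glycine alpha-amidating enzyme, the neuroendocrine protein 7B2 or proSAAS. The members described are 14 of 40209 features, with none for proSAAS. One library came from 1 male fish and 1 from 1 female fish, both aged 1 year, both from the same breeding laboratory, killed in the anaesthetic MS-222 and untreated otherwise as far as the labels say. The comparison, female against male brain, asks which transcripts differ between the sexes. With 1 fish per sex there was no replicate check and no test, and an effect of sex cannot be told apart from one of the animal or of its library. Libraries are called male and female by their gender labels, while the titles begin with O for the male and T for the female library, initials that can be read the other way. If the labels were swapped, every direction below would turn.

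Neuropeptides are made as long precursors that are packed with granins into dense core vesicles. Granins are acidic proteins that condense in the forming vesicle and are themselves cut into peptides. The neuroendocrine convertases PC1 and PC2, encoded by PCSK1 and PCSK2, cut the precursors after pairs of basic residues. Carboxypeptidase E then trims those residues from the new ends, and the amidating enzyme turns a terminal glycine into the amide that many peptides need to act on their receptors. The protein 7B2 is a chaperone of PC2. Granins and the neuroendocrine convertases are used as markers of neurons and endocrine cells that secrete peptides.

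Values are TPM, a relative abundance per length, and the listed features sum to 937828 in the male brain and to 943014 in the female brain. Reads recovered from the spacing of low values came to 26678827 for the male brain and to 24367941 for the female brain. Every interval of a fold given below is an exact 95% interval from such reads. It covers counting error only and not the spread between fish. Features are listed by the value of their higher library, and the interval does not allow for that selection either. Neuron markers were present, led by snap25 at 2201 TPM in the male brain and 2642 TPM in the female brain. They are the check of the tissue label used here.

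None of the 14 members was 2-fold or more apart on the log2(TPM + 0.5) scale, and their log2 ratios of female over male ran from −0.43 to 0.82. Over all features, 5.02% passed this threshold towards the female brain and 10.1% towards the male brain. Most members are long transcripts, 11 of 14 with at least 1000 bases, and among the 10726 features of that length the shares were 0.373% and 1.01%. A count of 0 among 14 is therefore near the background for features of this length. The median log2 ratio of the members was −0.03, beside −0.07 for all features and −0.05 for features of at least 1000 bases. The members summed to 1767 TPM in the male brain and 1723 TPM in the female brain, 0.188% and 0.183% of the listed total.

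**Figure D1:**
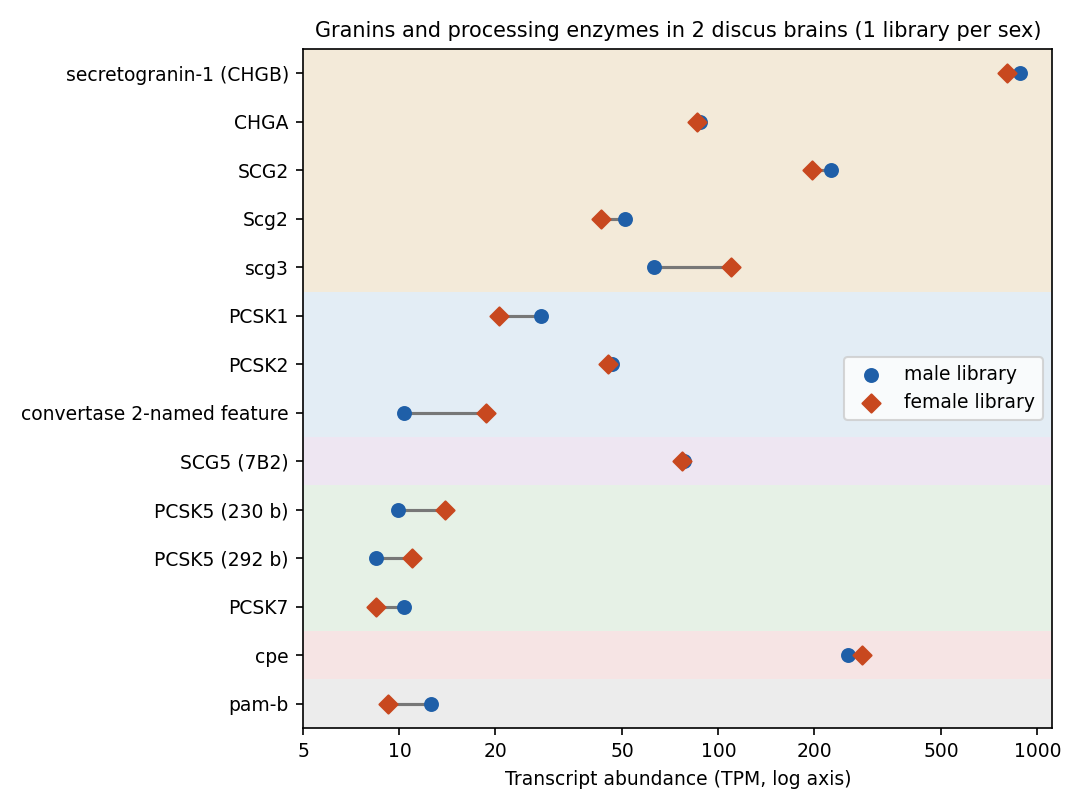
Transcript abundance of the 14 members in TPM (horizontal log axis), with 1 circle for the male and 1 diamond for the female library, joined by a line, and shading by role. Secretogranin-1 lay at 882 and 805 TPM, far to the right of the convertases, and the longest lines belong to scg3 and the feature named neuroendocrine convertase 2.

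The most abundant member was a granin. Secretogranin-1, also called chromogranin B, measured 882 TPM in the male brain and 805 TPM in the female brain (TRINITY_DN13223_c6_g1, 846 bases). It was the 87th and the 118th most abundant of all listed features in these libraries, and took 67.4% and 65.0% of the granin TPM. The male-to-female fold was 1.10, with an interval of 1.07 to 1.12, so the difference was small but larger than counting error. As far or farther towards the male library lay 37.31% of features of at least 1000 bases, though this feature is shorter. This feature carries no gene symbol, and its orthologous group is the one of chromogranin B.

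Chromogranin-A, which in mammals drives the formation of secretory granules, was far less abundant in both brains. CHGA measured 87.7 TPM in the male brain and 85.85 TPM in the female brain (TRINITY_DN13764_c1_g3, 1887 bases). Its fold, female over male, had an interval of 0.943 to 1.02 that held 1, and the sign of its log2 ratio, −0.03, turned when ratios were centred on all features.

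Secretogranin-2 is the precursor of secretoneurin, a peptide that stimulates release of luteinizing hormone in goldfish. It was represented by 2 features with different identifiers and the same protein name, and whether they are gene copies was not tested. The more abundant, SCG2, measured 225 TPM in the male brain and 196 TPM in the female brain (TRINITY_DN11936_c2_g3, 2176 bases). The other, Scg2, measured 50.9 and 42.8 TPM (TRINITY_DN14588_c2_g11, 2263 bases). Both were higher in the male library, by 1.15-fold (1.12 to 1.17) and 1.19-fold (1.14 to 1.25). Their ratio to each other was nearly the same in both brains, at 4.42 in the male and 4.58 in the female. Among features of at least 1000 bases, 28.95% lay as far or farther towards the male library as SCG2, and 23.48% as Scg2.

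Secretogranin-3, which in mammals binds chromogranin-A and holds it at the granule membrane, was higher in the female library by more than counting error. The feature scg3 measured 62.6 TPM in the male brain and 109 TPM in the female brain (TRINITY_DN12207_c2_g2, 2418 bases). It was 1.75-fold higher in the female library, with an interval of 1.69 to 1.81 from 5524 and 8837 recovered reads. Of the features of at least 1000 bases, 0.73% had a log2 ratio as high as its 0.80 or higher, and of the 848 of these with a mean of at least 50 TPM, 0.94%. Its level relative to CHGA was 0.714 in the male brain and 1.27 in the female brain, so that the order of these genes differed between the brains. In whole brain RNA, fewer cells of a type and less RNA per cell cannot be told apart. Apart from scg3, the granins lay within a narrow band of log2 ratios, from −0.25 to −0.03.

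**Figure D2:**
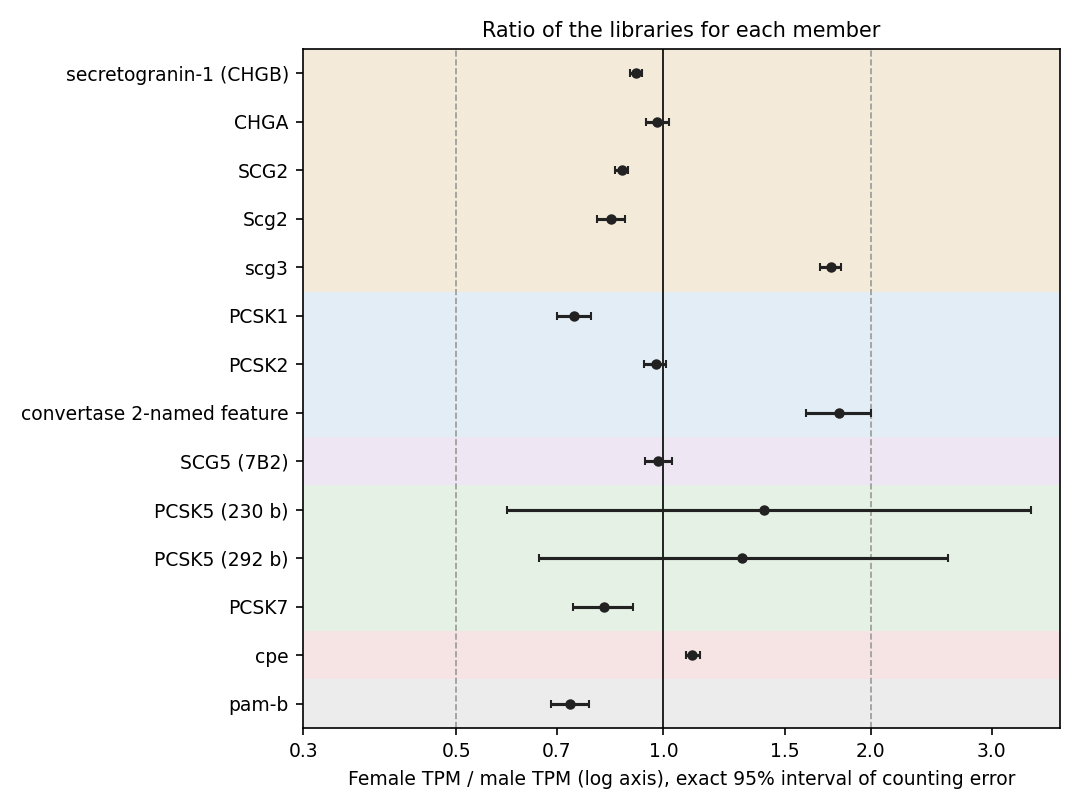
Female TPM divided by male TPM for each member (points, log axis) with the exact 95% interval of counting error (bars), a solid line at 1 and dashed lines at 2-fold. The interval of scg3 ran from 1.69 to 1.81 and that of pam-b from 0.686 to 0.779, while those of CHGA, PCSK2, SCG5 and both PCSK5 features held 1.

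Of the neuroendocrine convertases, PCSK2 was the more abundant in both brains. It measured 46.3 TPM in the male brain and 45.1 TPM in the female brain (TRINITY_DN13194_c2_g7, 2933 bases), and its fold, female over male, had an interval of 0.936 to 1.01 that held 1. Its chaperone 7B2, SCG5, measured 78.0 and 76.7 TPM (TRINITY_DN11535_c2_g5, 1447 bases), with an interval of 0.939 to 1.03. The level of the chaperone relative to the enzyme was 1.69 in the male brain and 1.70 in the female brain. PCSK2 and SCG5, with log2 ratios of −0.04 and −0.02, also changed sign on centring.

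PCSK1 measured 27.7 TPM in the male brain and 20.5 TPM in the female brain (TRINITY_DN14219_c2_g3, 2911 bases). It was 1.35-fold higher in the male library, with an interval of 1.27 to 1.43. Of the features of at least 1000 bases, 11% lay as far or farther towards the male library. The level of PCSK2 relative to PCSK1 was 1.67 in the male brain and 2.20 in the female brain.

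A further feature is named neuroendocrine convertase 2, from a match in the cyprinid Anabarilius grahami (TRINITY_DN13590_c2_g3, 1540 bases). It measured 10.4 TPM in the male brain and 18.6 TPM in the female brain, the highest log2 ratio of all members at 0.82, and a fold of 1.80 with an interval of 1.61 to 2.00. Its name is weakly grounded. It has no Swiss-Prot, Pfam or orthologous group entry, as is the case for 1650 of the 18927 features with a protein name, while PCSK2 above has all of these. It shares its identifier stem with an unnamed feature of 1107 bases at 14.3 and 25.3 TPM, which had a fold of 1.78, and with a feature of the clock gene Arntl at 10.2 and 14.2 TPM. The stem also holds a feature for the lipid phosphatase sacm1la, at 9.26 and 7.35 TPM. A shared stem alone was not taken to tie features to a gene. Whether the feature belongs to a convertase was not tested, and its values are not read as PC2.

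Carboxypeptidase E was the most abundant enzyme of the pathway. The feature cpe measured 255 TPM in the male brain and 281 TPM in the female brain (TRINITY_DN13805_c1_g12, 1578 bases). It was 1.10-fold higher in the female library, with an interval of 1.08 to 1.13. Its rank among all features was 307 and 295. Among features of at least 1000 bases, 22.5% lay as far or farther towards the female library.

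The amidating enzyme was present at a far lower level. The feature pam-b measured 12.6 TPM in the male brain and 9.20 TPM in the female brain (TRINITY_DN14012_c2_g6, 4892 bases). It was 1.37-fold higher in the male library, with an interval of 1.28 to 1.46, and 10.53% of features of at least 1000 bases lay as far towards the male library. The level of cpe relative to pam-b was 20.2 in the male brain and 30.5 in the female brain. Both PCSK1 and pam-b were thus lower in the female library, and cpe slightly higher.

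Other proprotein convertases act mainly in the constitutive pathway, and those described were low. PCSK7, a membrane-bound convertase of the trans-Golgi network, measured 10.3 TPM in the male brain and 8.45 TPM in the female brain (TRINITY_DN12258_c3_g2, 2423 bases). Its male-to-female fold was 1.22, with an interval of 1.11 to 1.35. Among features of at least 1000 bases, 21.02% lay as far or farther towards the male library.

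A pair of short features matched PCSK5, a convertase of growth factors with a cysteine-rich tail. The feature of 230 bases measured 9.88 TPM in the male brain and 13.9 TPM in the female brain, on 11 and 14 reads (TRINITY_DN12357_c4_g11). The feature of 292 bases measured 8.43 and 10.97 TPM, on 18 and 21 reads (TRINITY_DN14148_c1_g1). Their intervals, 0.592 to 3.42 and 0.66 to 2.59, held 1, so a difference was not detectable at this depth.

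At a threshold of 1.5-fold, 2 of the 14 members were higher in the female library, scg3 and the feature named neuroendocrine convertase 2, and 0 in the male library. The background at this threshold was 11.9% towards the female brain and 20.5% towards the male brain over all features. It was 1.86% and 5.5% among features of at least 1000 bases, which both of these members are. This threshold was chosen with earlier results known, and the feature named neuroendocrine convertase 2 is not read as PC2. The count of 2 is therefore not read as an excess. The interval of counting error left out 1 for 9 of 14 members, 3 of them higher in the female brain and 6 in the male brain. For these members the difference was larger than counting error, but the spread between fish and between libraries was not measured. The share of all features whose interval leaves out 1 was not computed, so this count is not read as particular to the members.

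**Figure D3:**
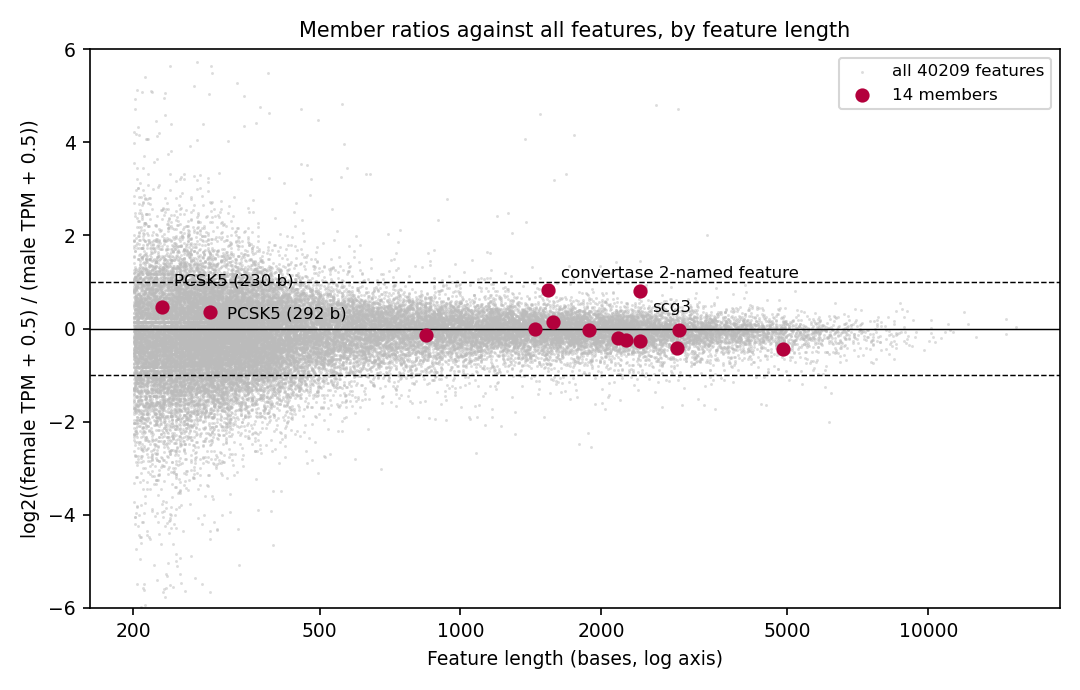
The log2 ratio of female over male for all 40209 features (grey) against feature length on a log axis, with the 14 members in red and dashed lines at 2-fold. Short features scatter widely, the members stay inside the dashed lines, and scg3 and the feature named neuroendocrine convertase 2 lie at the edge of features of their length, while 10 features fall beyond the vertical axis.

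Other genes of the pathway were taken from lists chosen with earlier results of these data known. The feature of the highest mean was used for each gene, and 2-fold again refers to the log2(TPM + 0.5) scale. Of 14 genes of peptide maturation outside the naming rule, 12 were matched, 5 with values above and 7 with values below 0 on the log2 scale and a median of −0.01. The most abundant was the protease gene CTSL (cathepsin L), at 68.4 TPM in the male brain and 88.0 TPM in the female brain. The carboxypeptidase CPZ, a secreted relative of carboxypeptidase E, was past 2-fold towards the female brain on its feature of 303 bases, at 5.82 and 16.2 TPM with 14 and 35 reads. This is 1 of 12 genes, 8.33%, beside 5.02% of all features. The other CPZ features had log2 ratios of 0.68 and −0.43, and the sum of all 3 one of 0.62, under 2-fold. The largest ratio towards the male library was that of PREPL, a relative of prolyl endopeptidase, at 8.36 and 3.96 TPM on 33 and 14 reads, a log2 ratio of −0.99. The granin relative VGF measured 9.52 and 5.18 TPM over 469 bases, on 81 and 40 reads. These PREPL and VGF features are listed only because their male values reached the minimum, so their ratios are not read as estimates.

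Of 27 genes of dense core vesicle formation and release, 24 were matched, 9 above and 15 below 0, with a median of −0.15. None passed 2-fold towards the female brain and 3 of 24 did towards the male brain, all on features of at most 335 bases. That is 12.5%, near the 10.1% of all features, and with the features of each gene summed 1 was left, CCDC186. The CCDC186 feature, at 6.29 and 2.68 TPM, is listed only because its male value reached the minimum for listing. The most abundant was PTPRN2, a phosphatase-like protein of the vesicle membrane, at 95.6 TPM in the male brain and 121 TPM in the female brain over 1205 bases. The PTPRN2 features of 2816 and 5982 bases had log2 ratios of −0.07 and −0.13, and the gene summed one of 0.15. The largest ratios belonged to short features with the symbols of the priming factors UNC13A, at 22.4 and 8.27 TPM over 208 bases on 21 and 7 reads, and UNC13B, at 18.7 and 7.93 TPM over 253 bases on 26 and 10 reads. The protein match of the former names the B homolog, so which of these genes it belongs to is uncertain. The 4 longer features with the UNC13A symbol had log2 ratios from −0.90 to −0.38 and the other UNC13B feature one of 0.15. Summed, the genes were at −0.78 and −0.62, under 2-fold. The CAPS gene CADPS, needed for release of dense core vesicles, measured 38.9 and 34.1 TPM on its most abundant feature. Its other features had log2 ratios from −0.39 to 0.13.

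Of 34 precursors that such enzymes process, 27 were matched, 18 above and 9 below 0, with a median of 0.27. The interval of this median from order statistics, nominally 95%, was −0.15 to 0.65 and held 0. Towards the female brain 6 passed 2-fold, 22.2% beside 5.02% of all features, and towards the male brain 0 did, beside 10.1%. The count of 6 was the same with the features of each gene summed. Only 5 of the 27 features have 1000 bases or more, and their spread is not compared with that of the long members. The most abundant was npy, at 347 TPM in the male brain and 277 TPM in the female brain. The largest ratios belonged to the melanin-concentrating hormone gene mch2, at 7.02 and 44.3 TPM, and to the appetite peptide AGRP, at 1.76 and 10.8 TPM. Given its selection for listing, the size of the AGRP fold is not read as an estimate. Summed over 1 feature per gene, the precursors measured 1424 and 1391 TPM.

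Of 13 genes of peptide breakdown 11 were matched, 3 above and 8 below 0, with a median of −0.15. The PREP feature, also counted under peptide maturation, has no symbol, and its protein match is named as that of PREPL is. The LNPEP feature has a protein match named endoplasmic reticulum aminopeptidase 1-like. Which genes these features belong to is therefore uncertain. Of the 11 genes, 2 were past 2-fold towards the male brain, 18.2% beside 10.1% of all features, and 4 of the 11 features have at least 1000 bases. The most abundant was Dpp6, at 32.9 and 32.3 TPM, a dipeptidyl peptidase relative without enzyme activity. The angiotensin-converting enzyme ACE measured 9.67 TPM in the male brain and 0.67 TPM in the female brain, on 16 reads and 1 read, a female-to-male fold of 0.0693 with an interval of 0.00165 to 0.446. The peptidase TPP2 measured 7.49 and 2.90 TPM on 99 and 35 reads. These ACE and TPP2 features are listed only because their male values reached the minimum for listing, and they were named for their large ratios. The ACE interval does not allow for this selection, so the size of its fold is not read as an estimate.

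**Figure D4:**
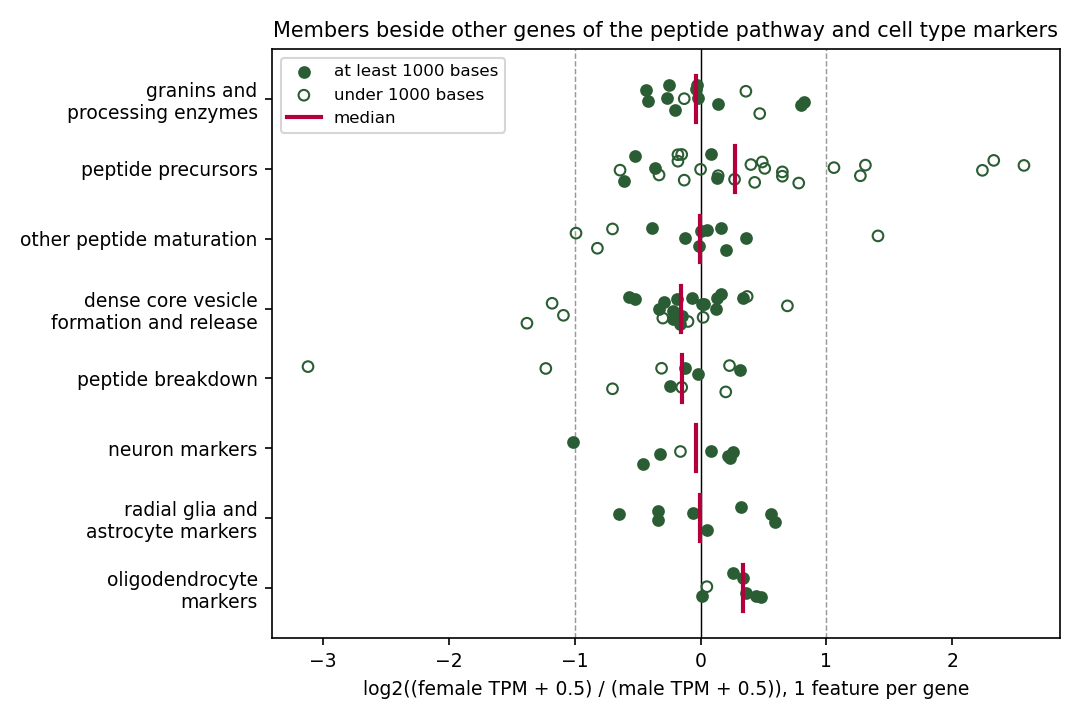
The log2 ratio of female over male for each member and for 1 feature per gene of 7 lists (points, filled from 1000 bases, open below), with red bars at medians. The members have a median of −0.03 and the precursors one of 0.27, and most points past 2-fold are open, that is short features.

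Markers of other peptide-secreting cells were few. Of 11 pituitary markers only POMC was matched, at 4.40 TPM in the male brain and 22.7 TPM in the female brain on 6 and 28 reads. Prolactin, growth hormone and the gonadotropin subunits were not matched, so no level of theirs can be given. Of 6 chromaffin and noradrenergic markers 3 were matched, summing to 34.1 and 55.0 TPM, and of 4 islet markers only IAPP was, at 6.35 and 13.5 TPM. Among the chromaffin and noradrenergic markers, TH measured 10.6 and 24.3 TPM over 232 bases, on 12 and 25 reads. The folds of DBH, over 2111 bases, and of SLC18A2 had intervals of 0.989 to 1.17 and 0.885 to 3.11, which held 1. On the features named here, each with at most 28 reads per library, POMC, TH and IAPP were past 2-fold towards the female library. Over all features 5.02% were, and with so few matched genes this is not read as an excess. The POMC feature is listed only because its female value reached the minimum for listing. While scg3 was also higher in the female library, the other granins had log2 ratios from −0.25 to −0.03. The other POMC feature, of 339 bases, measured 6.05 and 15.45 TPM in the male and female libraries. The other TH feature, of 288 bases, measured 7.35 and 15.83 TPM. Whether POMC, TH and IAPP have any link to the scg3 difference was not tested. Of 10 neuron markers 8 were matched, 4 above and 4 below 0, with a median of −0.04. Towards the male brain 1 of 8 passed 2-fold, 12.5% beside 10.1% of all features and 1.01% of those of at least 1000 bases. This was ELAVL3, at 52.7 and 25.9 TPM over 1294 bases, on 2229 and 1001 reads. With its 2 features summed the log2 ratio was −0.93, under 2-fold. Of 8 radial glia and astrocyte markers all were matched, 4 above and 4 below 0, and of 8 oligodendrocyte markers 7 were, all above 0, with a median of 0.34.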

How the data were processed

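Poly(A) RNA of 1 male and 1 female brain was sequenced in paired ends on an unstranded Illumina library. Per the submitters' processing notes, the tools were cutadapt, FastQC, Salmon and edgeR; versions and roles are not given in the sources used here. Identifiers look like those of the assembler Trinity. The deposited values are TPM, which the authors' processing scales by length and to a fixed total per library. The table holds features whose higher value is 6.01 TPM or more. Names come from the deposited protein matches, and length is that of the deposited transcript.

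Columns were matched to libraries by title, and libraries grouped by gender label. The ratio is log2((female TPM + 0.5) / (male TPM + 0.5)); folds are given without a pseudocount. Requiring 1 TPM in the higher library removed 0 features. No test was made, and no p-value is given.

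At a given length, TPM values are spaced by a constant step, taken as the worth of 1 read. A line of reads per TPM against length was fitted in windows from 201 to 460 bases and extended to longer features, which if anything counts too few reads. Under 30 reads, 95.4% of 13700 male and 95.2% of 15878 female values at 201 to 460 bases lay within 0.1 of a whole number, against 20% by chance. From 461 to 519 bases, on the extended line, 93.9% of 33 and 84.2% of 95 did. Exact (Clopper-Pearson) 95% intervals of a fold use these reads. They cover counting error only, and PCR duplicates would make them too narrow.

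The naming rule picked 15 features; 1 of them and 1 pituitary marker are not reported here and stand in no count of members or lists. The members, the lists and the threshold of 1.5-fold were chosen with earlier results of these data known. List genes were matched by symbol, or by protein name where a feature has no symbol. PREP, SLC18A2 and POMC stand in more than 1 list each. The feature with the highest mean of each member gene was named, with every other reported member beside it, and from each pathway list the most abundant gene and those with the largest ratios. CADPS and VGF were named after their values were seen.

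The analysis used Python 3.11.15, with Matplotlib 3.10.9, SciPy 1.17.1, pandas 2.3.3 and NumPy 2.4.6. On simulated libraries, for features over 460 bases, the median of recovered over true reads was 0.984 and 0.986 in the male and female design. The simulated reads were Poisson draws, with the same mean in both libraries for unchanged features, so they hold counting error only. Of 1000 intervals of unchanged features of at least 1000 bases, 95.8% held the true fold. This checks the computation of the intervals, not their fit to the spread in real libraries.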

Additional observations from a re-analysis of the deposited data

How the results depend on the processing

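No paired analysis was possible because each sex has 1 library. The counts of members 2-fold apart were 0 in each direction. They stayed at 0 with pseudocounts of 0.1 and 1 TPM, after centring, and with features of one name summed. Other settings could not raise a count of 0. A minimum of 10 TPM, a length of at least 1000 bases, and leaving out the feature named neuroendocrine convertase 2 only remove members. Dropping the minimum of 1 TPM changed nothing, since it had removed 0 features. A threshold of 1.5-fold gave 2 that were higher in the female brain and 0 higher in the male brain. Without the feature named neuroendocrine convertase 2, an alternative chosen after seeing the data, 1 remained towards the female library. The log2 ratio of the summed members, −0.04, became 0.05 without secretogranin-1. Of 84 alternative values of single members 71 stayed inside the counting interval and 13 did not, all of these under centring, which shifts ratios by the median of −0.07 or −0.05. CHGA, PCSK2 and SCG5 changed sign there, to 0.04, 0.04 and 0.05. All 45 alternative medians of the 9 lists with at least 3 matched genes stayed inside their interval from order statistics, nominally 95%. For the chromaffin list, with 3 matched genes, it is the whole range of values and no 95% interval. It is also the whole range for the neuron, glia and oligodendrocyte lists. A median can hardly leave such a range, so this is a weak check. Without replicate fish, no setting measures the spread between animals.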

Other observations

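Sortilin, a sorting receptor of the trans-Golgi network and endosomes, was represented by 6 features, a group formed after the values were seen. The long features measured 9.34 and 9.71 TPM (TRINITY_DN12606_c3_g1, 3404 bases) and 8.25 and 8.71 TPM (TRINITY_DN11797_c4_g6, 3523 bases) in the male and female libraries, and the intervals of their folds held 1. A pair of shorter features on another stem stood nearly at 0 in the male library. One of 564 bases (TRINITY_DN3032_c0_g2) measured 0.16 and 9.78 TPM, on 2 and 110 reads, a fold of 61.1 with an interval of 16.3 to 505. Its neighbour of 573 bases (TRINITY_DN3032_c0_g1) measured 0.16 and 6.76 TPM, on 2 and 79 reads, a fold of 42.2 with an interval of 11.6 to 365. This pair is listed only because the female values reached the minimum for listing. The intervals allow neither for that selection nor for the choice of the group, so the size of these folds is not read as an estimate. A feature of 437 bases, TRINITY_DN13855_c1_g2, measured 3.26 and 14.2 TPM, and one of 501 bases, TRINITY_DN71_c0_g1, 6.31 and 5.37 TPM. With 1 fish per sex, the sex, the individual and the library cannot be told apart for these features.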
